A study of Danio rerio with 12 samples.

Results

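The data described here are 6 arrays of zebrafish pineal glands, from fish that had just received a light pulse, with 1 array every 4 h between CT2 and CT22 of the cycle (circadian time, in hours from subjective dawn). They were chosen by the treatment label, light exposure, and are 6 of the 12 arrays of the series. The other 6 come from fish kept in darkness at the same times. CT2, CT6 and CT10 fall in the subjective day and CT14, CT18 and CT22 in the subjective night, which gives 3 light-pulse arrays to each side of the cycle. The question is how transcript levels changed over the cycle among glands that all saw light just before sampling.

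All fish, pulsed and dark, were adult males and females of 0.5 to 1.5 years of the transgenic line Tg(aanat2:EGFP)Y8, in which regulatory regions of aanat2 drive a green fluorescent protein used to find the gland during dissection. They were reared at 28 °C in 12 h of light and 12 h of darkness and moved to darkness on the evening before sampling. The pulsed fish then received 1 h of light at 12 W/m2 before they were killed. Each array holds RNA from 1 pool of 12 glands, so the pool is the sample and no time has a second pool. All groups carry the transgene, and the labels give both sexes for each pool.

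The zebrafish pineal gland holds photoreceptor cells that sense light, keep their own circadian clock and make melatonin. In the vertebrate clock, the activators Clock and Bmal drive genes of their own repressors, the Per, Cry and Dec proteins and Ciart. Nuclear receptors of the Ror family activate Bmal genes and those of the Rev-erb family repress them, and bZIP factors of the PAR group and their counterpart Nfil3 pass the rhythm on to output genes. Melatonin synthesis follows the clock through aanat2, the gene of its timing enzyme, and light acts on the clock partly through per2.

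The 12 pineal photoreceptor markers on the array all passed the signal filter in the light-pulse pools, with summed signals of 32860, 33648 and 32225 at CT2, CT6 and CT10, and 26759, 36296 and 28531 at CT14, CT18 and CT22. Over the whole array 6011 of 8793 genes passed this filter, as did 12 of 12 astroglia and 19 of 22 brain neuron markers. Passing it therefore does not single out pineal tissue. Day and night overlap in the photoreceptor sums. Other array-level measures differed between day and night. The median signal of an array was 83.1 to 87.4 in the day and 88.5 to 100.0 in the night. The control probe set for the 3' end of GAPDH read 3519, 2831 and 3320 at CT2, CT6 and CT10. At CT14, CT18 and CT22 it read 5228, 4846 and 3925, all above the day. The control for its 5' end overlapped between day and night and varied over the cycle. It read 176, 38.7 and 40.8 at CT2, CT6 and CT10, and 50.6, 137 and 148 at CT14, CT18 and CT22. Relative to the 3' control, the 5' control was thus lower at CT6, CT10 and CT14 than at CT2, CT18 and CT22. The spiked-in bacterial and phage controls averaged 10.30 to 10.60 log2 in the day and 10.59 to 11.20 in the night, with CT14 the highest and a narrow overlap. The part of these measures in courses over the cycle or in differences between day and night was not tested. The exception was a fit with the spike-in level as a covariate.

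Over the cycle, 23 probe sets varied with a 24 h cosine after the light pulse, and the clearest of them were clock genes. Values here are log2(signal + 13), the amplitude is the height of the fitted cosine above its mean, and a probe set is called at an adjusted p under 0.05 in limma's F-test of the cosine and sine. The 23 calls were 0.247% of the 9301 probe sets tested, and 1001 passed at an unadjusted p under 0.05. With 1 probe set for each gene, 12 of 6011 genes were called, 0.200%. Of the 23 fitted peaks, 13 lay in the subjective day and 10 in the subjective night. Between CT4 and CT8 lay 8 peaks, and 5 came after CT20. Amplitudes ran between 0.92 and 3.02 log2, with a median of 1.50, and the fitted peak stood 3.56 to 65.8 times above the trough.

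**Figure D1:**
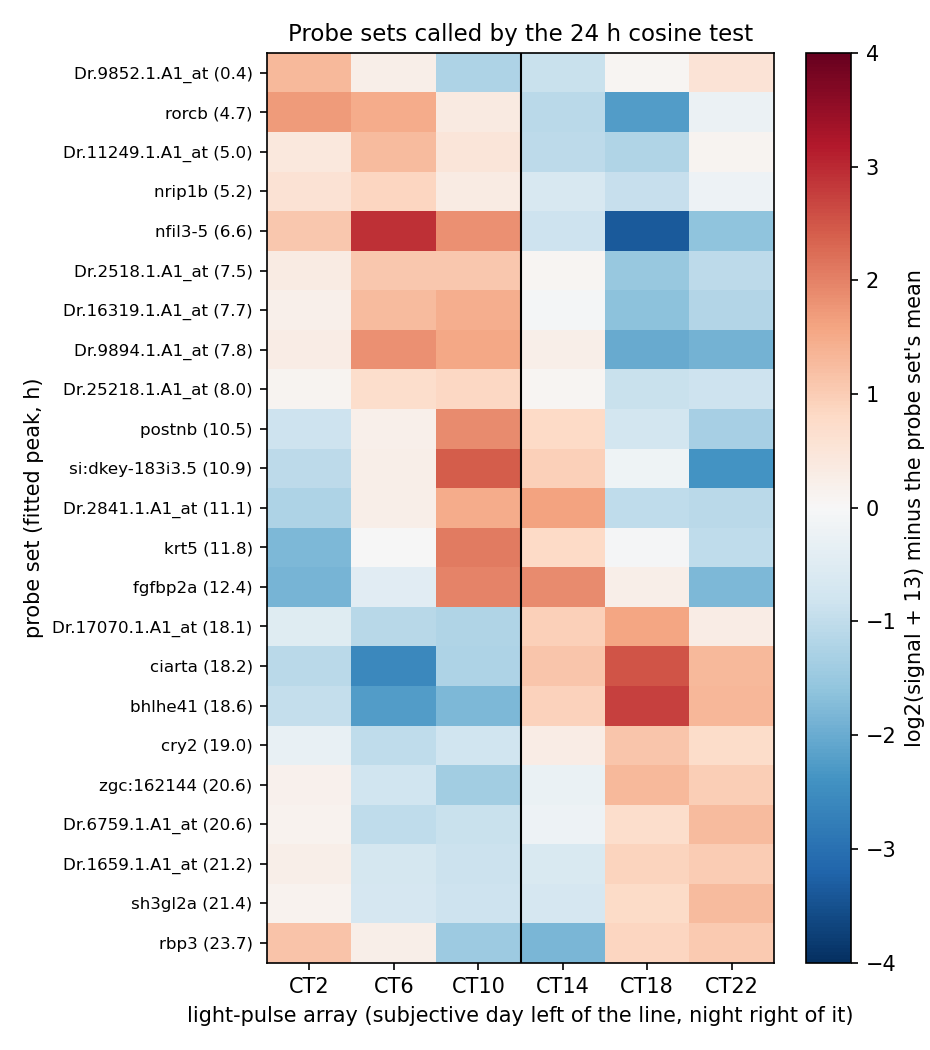
Each line is 1 of the 23 called probe sets, ordered by fitted peak (in brackets, hours of circadian time), and each column is 1 light-pulse array, with subjective day left of the line and subjective night right of it. Colour gives log2(signal + 13) minus the probe set's mean over the 6 arrays. A day block with nfil3-5 and rorcb, a block around CT10 and CT14 with krt5 and fgfbp2a, and a night block with ciarta and bhlhe41 follow each other down the plot.

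These calls rest on few arrays. With 3 residual degrees of freedom, an F-test without limma's moderation called 0 probe sets. The p-values and standard errors (SE) by limma use a moderated spread. It combines the spread of the 6 single pools around a cosine with a prior drawn from all kept probe sets. The prior has 7.71 degrees of freedom against 3 residual. The same holds for day minus night, with 6.49 against 4. Leaving out CT2, CT6, CT10 or CT18 lowered the calls to 14, 9, 9 and 9, of which 12, 8, 7 and 9 were among the 23. Leaving out CT14 raised them to 38, of which 16 were among the 23. Without CT22 there were 19, and 18 of these were among the 23. Of the 23 probe sets, 5 were called in every one of these 6 fits: nfil3-5, ciarta, bhlhe41 and 2 probe sets without a gene symbol, with fitted peaks at CT7.83 and CT7.66.

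Nfil3-5, the gene of a bZIP repressor of clock outputs, had the largest amplitude. Its signal was 1959 at CT2, 7156 at CT6, 3308 at CT10, 512 at CT14, 78.4 at CT18 and 295.0 at CT22. Every day pool was above every night pool, and the ratio of the highest pool to the lowest was larger than for any other named gene. The fitted amplitude was 3.02 ± 0.15 log2 (SE, n = 6 arrays) with a peak at CT6.56 and a peak 65.8-fold above the trough (adjusted p = 2.71e-05 by limma). The other kept members of the PAR bZIP and nfil3 list were not called. Nfil3-6, a second Nfil3 gene, read 4231, 2470, 1333, 1505, 3081 and 3895 over the 6 times, with its fitted peak at CT23.5 and an adjusted p of 0.0574. Nfil3-6 was thus highest at CT2 and lowest at CT10, a course unlike that of nfil3-5. Tefa, a PAR bZIP activator, had a fitted amplitude of 0.59 ± 0.19 at CT19.6 (adjusted p = 0.433 by limma).

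Among the clock activators and nuclear receptors, rorcb was called, 1 of 7 kept genes of 10 on the array, where 0.200% of all genes were. Rorcb encodes a Ror receptor, the class that activates Bmal genes. It read 337 at CT2, 284 at CT6, 125.0 at CT10, 37.7 at CT14, 9.8 at CT18 and 77.1 at CT22. All day pools were above all night pools, with the lowest value in the mid-night pool. The amplitude was 1.91 ± 0.21 log2 with a peak at CT4.72 (adjusted p = 0.00945 by limma), and the call was lost without CT2, CT6 or CT18 (adjusted p 0.0880, 0.0678 and 0.0718).

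Bmal1a, the gene of the Bmal activator, read 199, 196 and 171 in the day pools and 48.2, 71.8 and 32.9 in the night pools. Day and night did not overlap, yet the 24 h cosine was not called (amplitude 1.07 ± 0.26, CT6.22, adjusted p = 0.278 by limma). The values stood on 2 levels, with the step between CT10 and CT14. Nr1d2b, of the Rev-erb class that represses Bmal genes, read 1319, 226, 568, 1085, 1233 and 1953 over the 6 times, lowest at CT6 and highest at CT22. Its fitted peak was at CT20.0 (1.2 ± 0.26, adjusted p = 0.188 by limma). The activator genes clocka, clockb and npas2 had fitted amplitudes of 0.15, 0.21 and 0.48 and were not called.

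Among the clock repressors, ciarta and bhlhe41 were called, 2 of 7 kept genes of 11 on the array, where 0.200% of all genes were. Ciarta, which encodes a Ciart repressor of Clock and Bmal, read 144, 42.0 and 129 at CT2, CT6 and CT10, and 701, 1868 and 802 at CT14, CT18 and CT22. Bhlhe41, which encodes the Dec2 repressor, read 209, 78.4 and 110 at the day times and 798, 2853 and 1066 at the night times. Both were lowest at CT6, where nfil3-5 was highest, and highest at CT18, where nfil3-5 was lowest. The fitted amplitudes were 2.49 ± 0.13 log2 with a peak at CT18.2 for ciarta (adjusted p = 2.71e-05 by limma) and 2.52 ± 0.15 with a peak at CT18.6 for bhlhe41 (adjusted p = 7.44e-05). Leaving out any 1 array moved the amplitude of ciarta only between 2.41 and 2.52 and that of bhlhe41 between 2.35 and 2.69.

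Cry2, a cryptochrome gene, has 2 kept probe sets with differing calls. The brighter one read 256, 158, 156, 208, 772 and 510 over the 6 times and was not called (1.11 ± 0.18, CT20.0, adjusted p = 0.0802 by limma), except without CT14 (adjusted p = 0.0335). The other read 215, 126, 148, 330, 597 and 455 and was called (1.1 ± 0.13, CT19.0, adjusted p = 0.0156). Both were lowest in the middle or late subjective day and highest at CT18. Bhlhe40, the Dec1 repressor gene, spanned 5504, 1875, 253, 1988, 9835 and 4718, lowest at CT10 and highest at CT18. The fit gave 2.04 ± 0.38 at CT21.5 (adjusted p = 0.134 by limma).

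Per2, a repressor gene that light is known to induce in zebrafish tissues, read 1364, 1775 and 1528 at CT2, CT6 and CT10, and 576, 1648 and 2298 at CT14, CT18 and CT22. The CT14 pool was the lowest, the other 5 lay between 1364 and 2298, and the cosine was not called (0.54 ± 0.24, CT1.01, adjusted p = 0.585 by limma). Without CT14 the fitted amplitude of per2 was 0.14. Cry1a read 132, 159 and 154 in the day and 98.1, 109 and 120 in the night, without overlap but with a fitted amplitude of only 0.29 (adjusted p = 0.680). Cry5, the gene of the (6-4) photolyase that repairs ultraviolet damage, spanned 139 to 258 with an amplitude of 0.07 ± 0.19 (adjusted p = 0.979). A second, weaker probe set of cry5 varied more, with 70.3, 117, 191, 32.6, 157 and 102 over the 6 times. It was not called either (0.15 ± 0.34, adjusted p = 0.971 by limma).

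**Figure D2:**
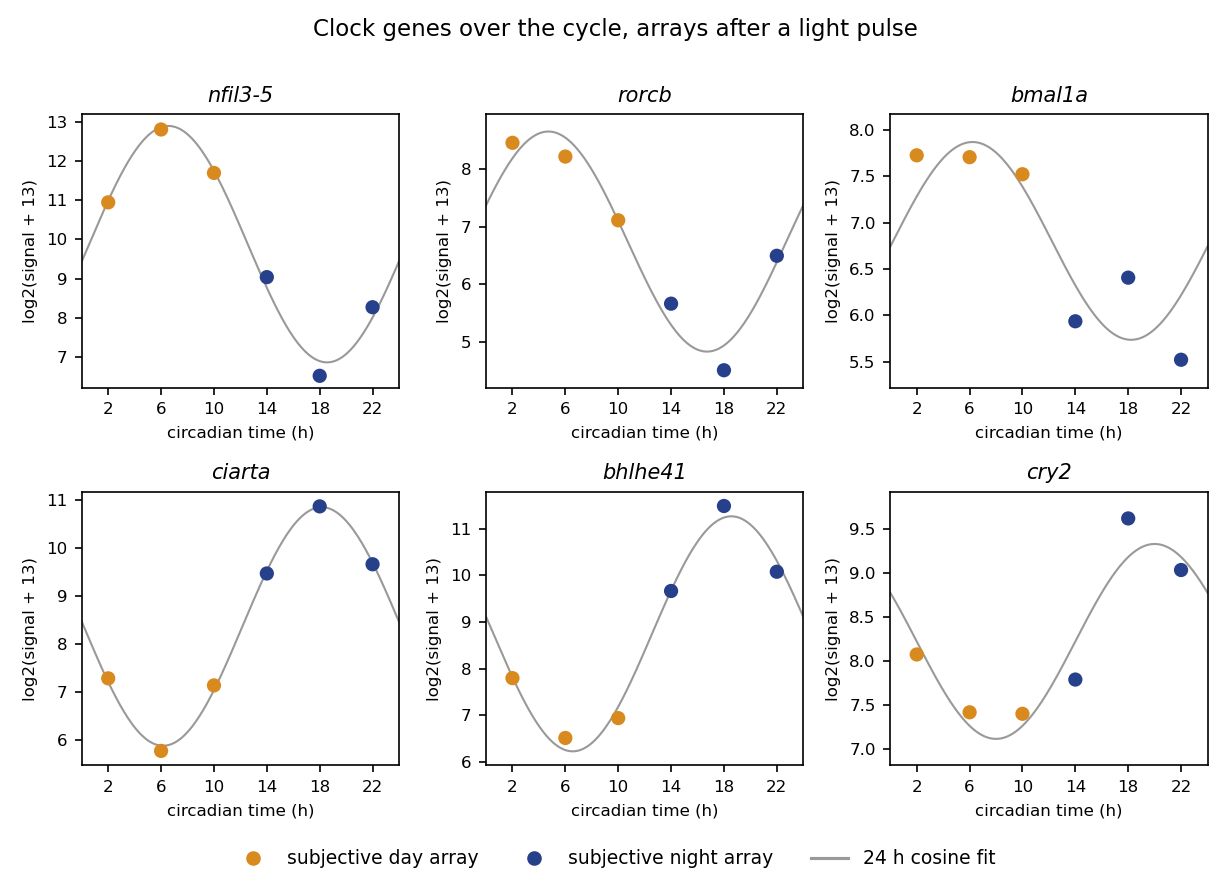
Points are log2(signal + 13) in each light-pulse array against circadian time in hours, orange for subjective day and blue for subjective night, and the grey line is the fitted 24 h cosine. Nfil3-5 and rorcb peak at CT6.56 and CT4.72, ciarta and bhlhe41 at CT18.2 and CT18.6, and bmal1a stands on 2 levels, 171 to 199 by day and 32.9 to 71.8 by night.

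The clock lists held more amplitude than the array as a whole. The median amplitude was 1.11 log2 over the 7 kept repressor genes, 0.77 over the 7 activator and nuclear receptor genes and 0.88 over the 3 PAR bZIP and nfil3 genes, against 0.24 over all 6011 genes. Without adjustment, 4 of 7, 4 of 7 and 3 of 3 passed the F-test, where 10.1% of all genes did. Of 5 genes for casein kinases and other clock modifiers none was called. Fbxl3a, whose mouse counterpart marks cryptochromes for breakdown, read 1769, 1539 and 1526 in the day and 967, 606 and 746 in the night (0.76 ± 0.15, CT6.23, adjusted p = 0.140 by limma). Csnk1db, a casein kinase gene, was at its highest at CT18 (2361) and lowest at CT6 (1135), with an adjusted p of 0.433.

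Of the genes of melatonin synthesis and pineal identity, 0 of 15 kept genes of 24 were called. Their median amplitude was 0.21 log2, against 0.24 over all genes, and 3 of the 15 passed the F-test without adjustment, where 10.1% of all genes did. Aanat2 read 636 at CT2, 1445 at CT6, 4682 at CT10, 1375 at CT14, 4099 at CT18 and 848 at CT22. The CT14 pool was low between 2 high neighbours. With all arrays the fit gave 1.06 ± 0.35 log2 at CT13.0 (adjusted p = 0.433 by limma), and without CT14 it gave an amplitude of 1.90 at CT13.4 and a call (adjusted p = 0.0137).

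Tph1a, which encodes the enzyme of the first step from tryptophan, peaked in the fit at CT11.5 (0.48 ± 0.15, adjusted p = 0.421 by limma), with signals of 901, 877, 1349, 1184, 1055 and 551. A second probe set of tph1a had its fitted peak at CT10.2 (0.34 ± 0.17, adjusted p = 0.654 by limma). Neurod1, a transcription factor of photoreceptors, read 1314, 1255, 546, 610, 1129 and 2191, with a fitted peak at CT23.6 (0.89 ± 0.16, adjusted p = 0.121). Exorh, the pineal opsin gene, read 1940, 1587 and 1687 in the day and 858, 1966 and 1155 in the night, with a fitted amplitude of 0.26 ± 0.21 (adjusted p = 0.819). The other members included crx and tph2, with amplitudes of 0.21 and 0.12.

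Of the phototransduction genes, rbp3 was called, 1 of 27 kept genes of 33, where 0.200% of all genes were called. Rbp3 encodes the protein that carries retinoids between photoreceptors and their neighbours. It read 1919 at CT2, 1025 at CT6, 306 at CT10, 233 at CT14, 1569 at CT18 and 1806 at CT22. The low values were those of the 2 pools around dusk, so day and night pools overlapped. The amplitude was 1.59 ± 0.22 log2 with a peak at CT23.7 (adjusted p = 0.0390 by limma), and the call was lost without CT2, CT6, CT10 or CT14 (adjusted p up to 0.208).

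Of the 27 phototransduction genes, 10 passed the F-test without adjustment, against 10.1% of all genes, and their fitted peaks fell in no single window, 3 between CT0 and CT6, 3 between CT6 and CT12 and 4 between CT18 and CT24. Gngt2b, a cone transducin subunit gene, read 80.6, 118, 259, 205, 103 and 52.4, opposite to rbp3 (0.97 ± 0.16, CT11.2, adjusted p = 0.0985 by limma). Opn1lw1, the red cone opsin gene, read 4801, 6697 and 3565 in the day and 3267, 1252 and 829 in the night. Day and night pools did not overlap, and the fit gave 1.32 ± 0.25 at CT7.31 (adjusted p = 0.128). Cyp27c1, whose enzyme makes the chromophore of longer wavelength sensitivity, read 306, 162, 215, 204, 1181 and 742, with a fitted peak at CT20.0 (1.3 ± 0.23, adjusted p = 0.114) and a call only without CT14 (adjusted p = 0.0137).

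**Figure D3:**
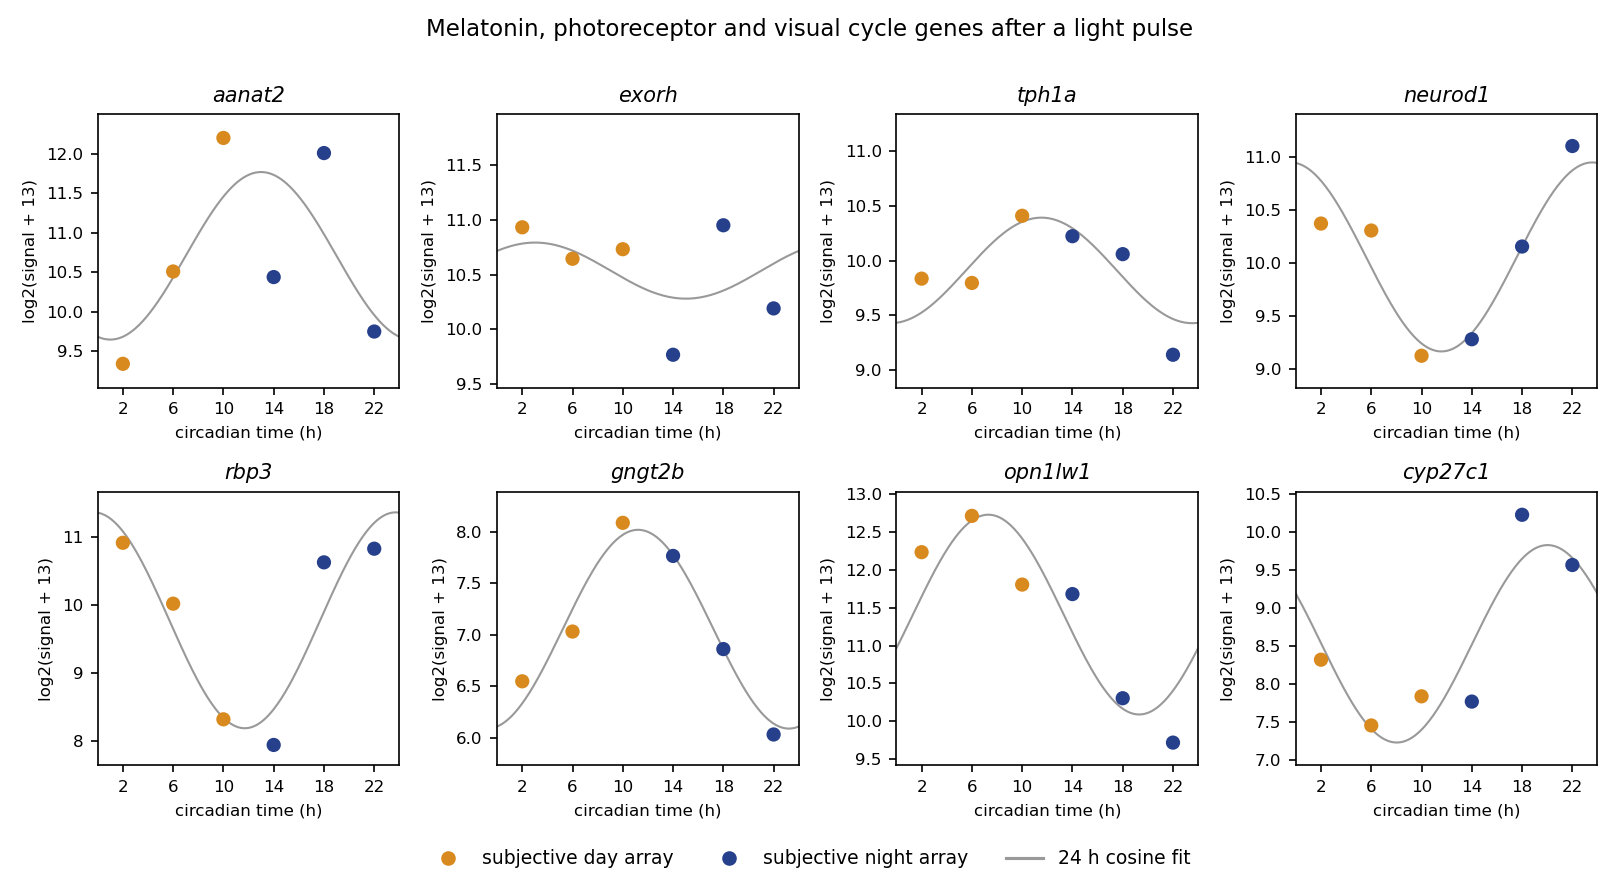
Log2(signal + 13) in each light-pulse array against circadian time in hours, orange for subjective day and blue for subjective night, with the fitted 24 h cosine in grey. The CT14 pool of aanat2 (1375) lies between 4682 at CT10 and 4099 at CT18, rbp3 is lowest at CT10 and CT14, and opn1lw1 and cyp27c1 have fitted peaks at CT7.31 and CT20.0.

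Genes of surface epithelium and some with a like course were highest in the CT10 pool. Krt5, a keratin gene, read 295 at CT2, 1057 at CT6, 4493 at CT10, 1848 at CT14, 1034 at CT18 and 515 at CT22. It was called (1.64 ± 0.22 log2, CT11.8, adjusted p = 0.0316 by limma) and lost the call without CT2, CT6, CT10 or CT18. Of the 26 kept skin and epithelium markers, krt5 alone was called, where 0.200% of all genes were. Without adjustment 14 of the 26 passed the F-test, which 10.1% of all genes passed. Of the 14, 12 had a fitted peak between CT6 and CT12, against 171 of the 609 passing genes of the whole array. Cldni, a claudin gene of tight junctions, was below the signal filter without CT10. It read 21.1, 73.0, 245, 139, 59.9 and 31.7 (1.36 ± 0.22, CT11.6, adjusted p = 0.0833 by limma). Krt91 (112, 634, 1655, 532, 584 and 226) and the cadherin gene cdh1 (66.0, 181, 338, 137, 92.3 and 78.5) were likewise highest at CT10 and lowest at CT2, and were not called.

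Krt18a.1 differed from the other keratins, with 273, 270 and 265 in the day and 389, 712 and 356 in the night (fitted peak CT17.8, adjusted p = 0.327 by limma). Further called genes outside that list had courses like that of krt5. Fgfbp2a, which encodes a carrier of fibroblast growth factors, read 10.8, 49.6, 328, 307, 87.3 and 11.9 (2.19 ± 0.20, CT12.4, adjusted p = 0.00240). It was below the signal filter without CT10 or CT14. The uncharacterised si:dkey-183i3.5 read 77.9, 210, 1007, 358, 155 and 23.3 (2.06 ± 0.22, CT10.9, adjusted p = 0.00795), and its call was lost without CT10.

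Postnb, a periostin gene of the extracellular matrix and 1 of 9 kept connective tissue markers, read 76.6, 169, 570, 263, 82.1 and 50.7 (1.50 ± 0.18, CT10.5, adjusted p = 0.0156 by limma). It lost its call without CT10 or CT18. The other collagen and matrix genes on that list were not called, where 0.200% of all genes were called. Of the 9, 3 passed the F-test without adjustment, against 10.1% of all genes. Their fitted peaks were 2 between CT6 and CT12 and 1 between CT12 and CT18. Dcn, at the flat end, spanned 231 to 418 with an amplitude of 0.09.

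Marker genes of other cell types were summed in the same pools. The 26 skin and epithelium markers summed to signals of 3992, 7983 and 15363 at CT2, CT6 and CT10. They summed to 7425, 7488 and 4656 at CT14, CT18 and CT22, so CT10 was the highest pool. Krt5, cldni, krt91 and cdh1 are part of this sum, so it is not a separate observation. These 26, of 36 on the array, are the markers that passed the signal filter. Their lowest value in any light-pulse pool was 19.8. The 13 kept leukocyte markers also summed highest at CT10, with 8740 there and 4023 to 6043 in the other pools. Of the 13, 4 passed the F-test without adjustment, against 10.1% of all genes. All 4 had a fitted peak between CT6 and CT12, against 171 of the 609 passing genes. The 9 kept connective tissue markers, postnb among them, summed highest at CT14, with 2934 there, 2791 at CT10 and 1542 at CT22, the lowest. The pineal photoreceptor sum at CT10, 32225, was near those of CT2 and CT6, but its members did not all stay level. It includes aanat2, which read 636, 1445 and 4682 at CT2, CT6 and CT10. It also includes gngt1, which read 12865, 14561 and 10509 at these times. Of the 12 photoreceptor markers, 5 passed the F-test without adjustment, against 10.1% of all genes. In pools of dissected glands, a change in the number of cells of a type and a change in RNA per cell cannot be told apart, and the part of skin in the courses of fgfbp2a, si:dkey-183i3.5 and postnb was not tested.

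**Figure D4:**
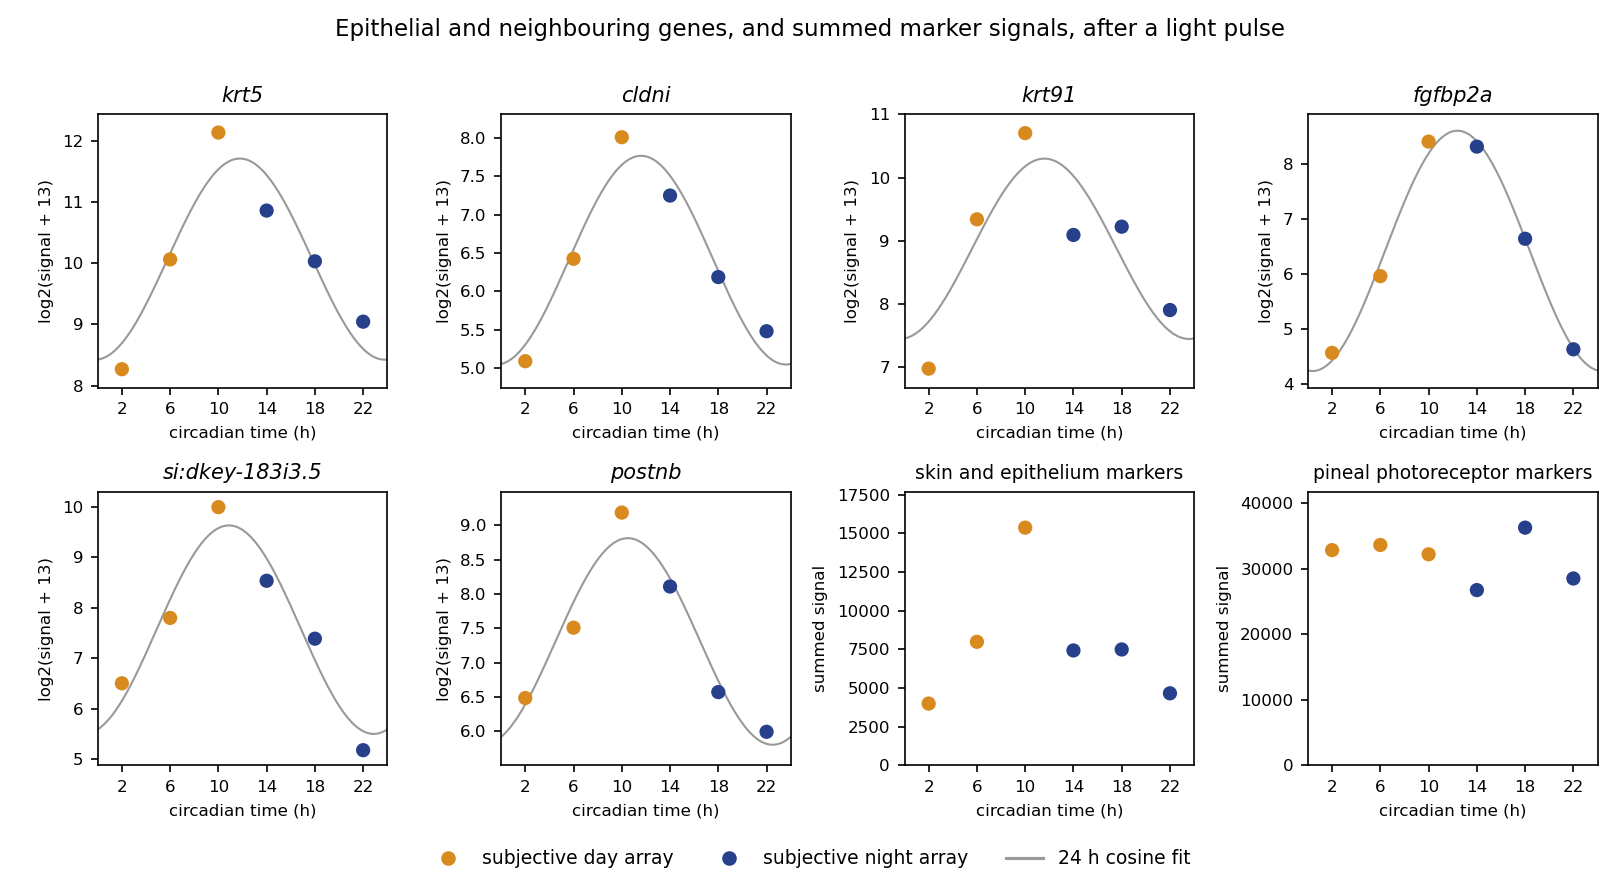
The first 6 panels give log2(signal + 13) of krt5, cldni, krt91, fgfbp2a, si:dkey-183i3.5 and postnb in each light-pulse array against circadian time in hours, with the 24 h cosine in grey; the last 2 give the summed signal of 26 skin and 12 pineal photoreceptor markers. The 6 genes are highest at CT10, as is the skin sum (15363), which includes krt5, cldni and krt91. The photoreceptor sum stays between 26759 and 36296, though 5 of its 12 members passed the unadjusted F-test, against 10.1% of all genes. That sum includes aanat2 (636 at CT2 and 4682 at CT10) and gngt1 (12865 and 10509).

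The remaining called genes lay at other phases. Sh3gl2a, an endophilin gene of synaptic vesicle recycling, read 912, 504 and 460 in the day and 504, 1403 and 1997 in the night (1.09 ± 0.15, CT21.4, adjusted p = 0.0370 by limma). The gene zgc:162144, without an assigned role here, read 213, 101, 63.4, 154, 480 and 386 (1.31 ± 0.16, CT20.6, adjusted p = 0.0157). Nrip1b, a nuclear receptor corepressor gene, read 453, 557 and 384 in the day and 186, 151 and 261 in the night (0.92 ± 0.13, CT5.16, adjusted p = 0.0405). Sh3gl2a kept its call only without CT14, zgc:162144 lost it without CT6, CT10 or CT18, and nrip1b lost it in every fit with 1 array left out.

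Of the called probe sets, 10 have no gene symbol in the array's annotation and appear under their array IDs in the plot of called probe sets. The one of largest amplitude read 1055, 3046, 2498, 1006, 200 and 219 (2.1 ± 0.15, CT7.83, adjusted p = 3.05e-04 by limma). A pair of others had fitted peaks close by, at CT7.66 and CT7.54, with amplitudes of 1.61 and 1.37. One with its fitted peak at CT18.1 read 743, 476 and 444 in the day and 2049, 3150 and 1307 in the night, a course like that of ciarta and bhlhe41.

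Next to the threshold, 12 further genes named by the smallest p, nfil3-6, cry2 and cldni among them, had adjusted p between 0.0568 and 0.0985. Hspa4l, a chaperone gene of the Hsp110 class, read 2025, 977, 708, 1157, 1956 and 2323 (0.87 ± 0.13, CT21.8, adjusted p = 0.0568 by limma). Ptp4a3b, a phosphatase gene, read 2548, 3087 and 3522 in the day and 1563, 959 and 1359 in the night (0.92 ± 0.14, CT6.80, adjusted p = 0.0574). Rims2a, a scaffold gene of the presynaptic release site, read 363, 338 and 276 in the day and 499, 1085 and 821 in the night (0.93 ± 0.16, CT19.3, adjusted p = 0.0920). Id2b, an inhibitor of bHLH factors, had its fitted peak at CT8.10 and znf395b, a zinc finger gene, at CT20.8. Second probe sets of ptp4a3b and id2b were further from the threshold (adjusted p = 0.423 and 0.198 by limma). Their fitted peaks were at CT5.31 and CT9.62.

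Set side by side, subjective day and subjective night gave no call. Of 9301 probe sets, 0 passed in limma (0%), and 832 were at an unadjusted p under 0.05. Times within the day or the night are not replicates of one condition, so the spread includes change within each, and for a single gene the exact permutation test of 3 against 3 cannot go below a two-sided p of 0.1. Among the 6011 genes, 440 (7.32%) had all 3 day pools above all 3 night pools and 466 (7.75%) had all 3 below.

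Nfil3-5 had the largest difference, day minus night, at 3.88 ± 0.59 log2 (SE, n = 3 and 3 arrays, adjusted p = 0.124 by limma). Bhlhe41 differed by -3.32 ± 0.45 and ciarta by -3.27 ± 0.44, each with an adjusted p of 0.0790 by limma. Bmal1a differed by 1.70 ± 0.27 (adjusted p = 0.130). These clock genes were without overlap between day and night but past no adjusted threshold.

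Tecrb, an enoyl reductase gene of very long chain fatty acid synthesis, was nearly flat within the day and within the night. It read 2194, 2198 and 2219 in the day pools and 962, 976 and 883 in the night pools, a difference of 1.22 ± 0.17 log2 (adjusted p = 0.0854 by limma). Its other 2 kept probe sets gave 0.47 and -0.44, so the probe sets of tecrb did not go the same way. Cpt1ab, the gene of the enzyme that admits fatty acids to mitochondria, read 309, 297 and 221 in the day and 109, 116 and 131 in the night (1.12 ± 0.21, adjusted p = 0.219).

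On the other side, btf3, of a nascent chain binding complex, read 1589, 1508 and 1442 in the day and 4654, 2415 and 4070 in the night (-1.24 ± 0.25, adjusted p = 0.247 by limma). A second probe set of btf3 gave -0.13. Gapdh, the glycolytic gene, read 118, 93.2 and 105 in the day and 221, 215 and 178 in the night (-0.88 ± 0.20, adjusted p = 0.303 by limma). The control probe set for the 3' end of GAPDH had the same direction. The control for the 5' end overlapped between day and night. Abhd2a, cfap298 and etv5b also had 3 day pools below 3 night pools, with differences of -1.01, -0.84 and -0.89.

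The comparison of day with night changed with 1 array and with the spike-in level. Without CT14 limma called 9 probe sets, 6 higher and 3 lower in the day. With the mean spike-in level as a covariate it called 25, of which 11 were higher and 14 lower in the day. Among these were nfil3-5 (5.0), opn1lw1 (2.66) and id2b (2.15) on the day side, and bhlhe41 (-4.09), ciarta (-3.91) and cyp27c1 (-2.55) on the night side. The CT14 array has the highest spike-in level of the 6. Why the calls differ was not tested.

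Lists of basic cell functions held no cosine call. Of 73 cytosolic ribosomal protein genes, 15 passed the F-test without adjustment, where 10.1% of all genes did. Of those 15, 12 had a fitted peak between CT12 and CT18, against 167 of the 609 genes passing over the whole array. Rpl11 read 2122, 2377, 3249, 5813, 2844 and 1476 (0.76 ± 0.17, CT12.7, adjusted p = 0.216 by limma) and rpl17 read 669, 951, 1160, 1460, 1405 and 509 (0.68 ± 0.17, CT13.0, adjusted p = 0.272). Both were highest at CT14 and lowest at CT22, while rps9 went the other way, with 1176 at CT14 and 3867 at CT6. Of the 73, 2 had all day pools above all night pools and 0 had all below, against 7.32% and 7.75% of all genes.

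The respiratory chain list differed in the other measure. Of its 83 kept genes 4 passed the F-test without adjustment, but 14 had all day pools above all night pools, where 7.32% of all genes did, and 2 had all below. Ndufc1, a subunit gene of complex I, read 616, 698 and 531 in the day and 418, 364 and 398 in the night (difference 0.62 ± 0.19, adjusted p = 0.432 by limma). Cox7c of complex IV read 4332, 4798 and 5074 in the day and 4264, 3874 and 2933 in the night. The median difference over the 83 genes was 0.04 log2, against -0.01 over all genes. Of 17 sterol and fatty acid genes, 15 had a fitted peak in the subjective day, against 2970 of 6011 over all genes. All day pools were above all night pools in 3 of the 17, against 7.32% of all genes, hmgcs1 with 360, 419 and 628 by day and 245, 220 and 257 by night among them.

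Immediate-early and activity-regulated genes, which many stimuli induce within the hour, were not called, 0 of 55 kept of 71 (13 passed without adjustment, where 10.1% of all genes did). Of the 55 fitted peaks, 37 lay in the subjective night, against 3041 of 6011 over all genes. Of the 13, 7 lay between CT12 and CT18, against 167 of the 609 passing genes. Klf9, a transcription factor gene that responds to glucocorticoids, read 1228, 865 and 1580 in the day and 2908, 2056 and 1713 in the night (0.71 ± 0.15, CT16.2, adjusted p = 0.179 by limma). Sik1, a kinase gene induced by cAMP, read 1353, 789, 1740, 2537, 3244 and 1141 (0.84 ± 0.19, CT15.9, adjusted p = 0.203). Jun stayed between 565 and 886 over the 6 pools, with an amplitude of 0.30.

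Past the unadjusted F-test, which 10.1% of all genes passed, were 0 of 45 proteasome genes, 1 of 25 photolyase and DNA repair genes (cry-dash), 2 of 29 antioxidant genes, 2 of 26 cell cycle genes and 3 of 26 genes of endoplasmic reticulum stress. Cry-dash, of the cryptochrome and photolyase family, read 61.0, 35.3 and 41.2 in the day and 73.4, 164 and 173 in the night (1.06 ± 0.19, CT19.7, adjusted p = 0.122 by limma). Of 19 brain neuron markers, 15 had a fitted peak in the night, against 3041 of 6011 over all genes. Their summed signal was 25039 at CT22 and 15267 to 16535 in the other 5 pools, so the CT22 pool stood apart. Skeletal muscle markers summed highest at CT18, with 1681 there and 915 to 1081 elsewhere, and ckmb, a muscle creatine kinase gene, read 456 in that pool against 77.1 to 145 in the others.

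The arrays from darkness, fitted alone on the same probe sets, gave 20 calls, 0.215%. Of these, 11 were called in both conditions, 47.8% of the calls after light and 55% of those in darkness. Those 11 had an earlier fitted peak after light, by 0.17 to 3.1 h with a median of 1.76 h. Of all 23 probe sets called after light, 16 had an earlier fitted peak there than in darkness and 7 a later one, and of all 9301 probe sets 4625 had an earlier one. Among the 7 were krt5 (CT11.8 after light and CT8.71 in darkness), fgfbp2a (CT12.4 and CT10.4), si:dkey-183i3.5 (CT10.9 and CT9.36), postnb (CT10.5 and CT9.15) and sh3gl2a (CT21.4 and CT20.6). A shift of the peak was not tested by itself, and each course rests on 6 pools sampled every 4 h. Nfil3-5 peaked at CT6.56 after light and CT8.37 in darkness, rorcb at CT4.72 and CT6.05, ciarta at CT18.2 and CT20.2, bhlhe41 at CT18.6 and CT19.9, and rbp3 at CT23.7 and CT2.80. The amplitude of nfil3-5 was 3.02 log2 after light and 2.27 in darkness. Spike-in and 3' GAPDH levels also differed between the conditions at CT2 to CT18. The spike-in controls averaged 10.30 to 11.20 log2 after light, and in darkness 9.58 to 9.83 at CT2 to CT18 and 10.62 at CT22. The 3' GAPDH control read 2831 to 5228 after light, and in darkness 5895 to 7401 at CT2 to CT18 and 3936 at CT22. The part of these measures in the differences between light and dark courses was not tested.

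**Figure D5:**
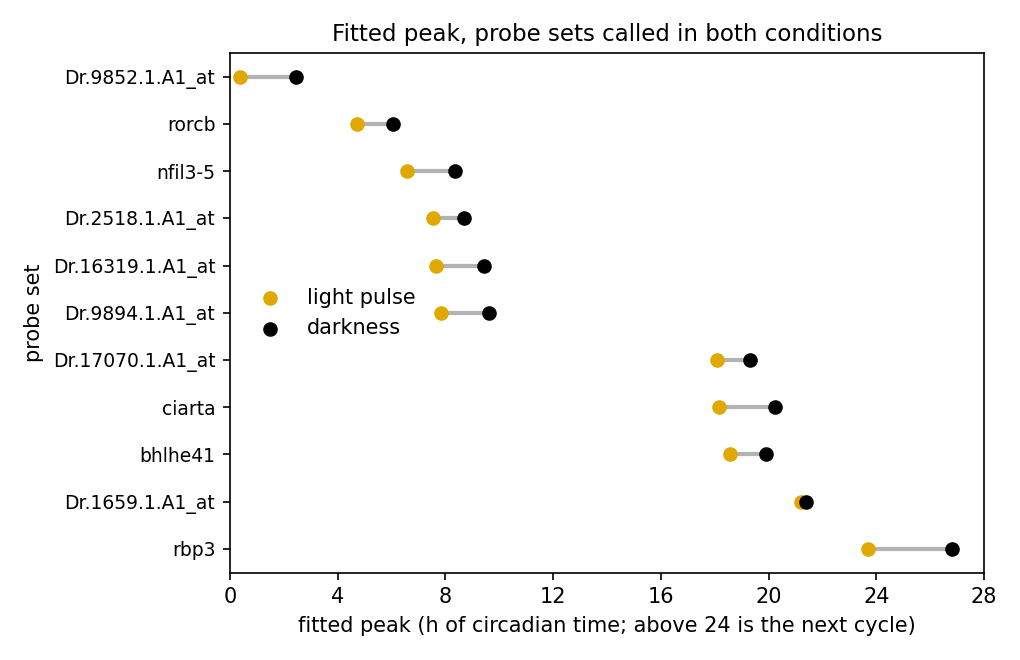
Fitted peak in hours of circadian time for the 11 probe sets called both after the light pulse (yellow) and in darkness (black), with a line joining the 2; values above 24 belong to the next cycle. The yellow point is earlier in each of these 11, by 0.17 to 3.1 h; the 12 probe sets called only after light, of which 7 had a later fitted peak there, are not drawn.

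The joint test of light with the cosine and sine over all 12 arrays passed for 0 of 9301 probe sets (0%) by limma, and 864 were at an unadjusted p under 0.05. These probe sets were kept by their mean over all 12 arrays, so the set differs from that of the light fit. Cry-dash was not among them and was not tested. No tested course was thus shown to differ between light and darkness. The named genes with the smallest p were ciarta, LOC100151028 and opn1sw1, each with an adjusted p of 0.386. LOC100151028 read 46.8, 193, 234, 96.0, 182 and 39.0 after light and 185, 77.5, 34.1, 8.6, 67.1 and 228 in darkness, with fitted peaks at CT10.9 and CT0.469. Opn1sw1, the ultraviolet cone opsin gene, had fitted peaks at CT12.0 after light and CT0.0969 in darkness.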

How the data were processed

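Intensities were deposited by the authors as linear signals, 1 for each probe set of a 1-colour array. The submitters' processing notes credit GCOS and MAS5, with no version. RNA was amplified in 2 rounds from oligo(dT), per the labels' protocols. The trimmed mean (2% off each end) was 200.04 on every array, and no further scaling was applied. Of 15617 rows, 115 control probe sets were left out; 10795 of the others had 1 gene symbol, 135 several and 4572 none in the platform annotation. Log2(signal + 13) was used, 13 being the rounded 10th percentile, so changes of weak probe sets are understated. Probe sets with a mean at or above the 40th percentile over the 6 light arrays (a signal of 62.9) were kept, 9301 for 6011 genes. The number of arrays limits precision.

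Models were fitted with lmFit and eBayes (with an intensity trend) of limma 3.58.1, R 4.3.3, and adjusted by Benjamini-Hochberg over all kept probe sets: an F-test of a 24 h cosine and sine, day minus night, and light by cosine over 12 arrays. The steps were tested on simulated data. The probe set with the highest mean stands for a gene. Members and lists were chosen with earlier results of these data known. The text names 5 genes in every case (per2, cry1a, cry5, aanat2, exorh); 12 genes with a day and 12 with a night peak, called or of smallest cosine p; 8 non-overlapping genes for each direction of day minus night; list members that were called, or otherwise those 2 of smallest p; and 3 genes for light by cosine. Other list members and probe sets without a symbol were added after their values were seen. Alternatives were another pseudocount, filter, scaling, moderation or covariate, all 12 arrays, and each array left out.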

Additional observations from a re-analysis of the deposited data

Results flagged for a closer look

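Etv5b, the gene of an ETS transcription factor, went opposite ways in the 2 conditions. After the light pulse the day pools read 252, 244 and 170 and the night pools 424, 463 and 374, all day pools lower, a day minus night difference of -0.89 log2. In darkness the day pools read 576, 774 and 545 and the night pools 517, 471 and 465, all day pools higher, a difference of 0.36. The difference between these 2 day minus night values was not tested. The related test of light by cosine over 12 arrays did not pass for etv5b (adjusted p = 0.489 by limma). After light, 7.75% of all genes had all day pools below all night pools. The share of these with the opposite order in darkness is not given here.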

How the results depend on the processing

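With all 6 light arrays, the count of cosine calls was 23 and stayed within 1.5 times that under either other pseudocount, no filter or a stricter one, a filter over 12 arrays, quantile normalization and the spike-in covariate (18 to 28). With the spike-in covariate, 18 of the 28 calls were among the 23. The count was 10 without an intensity trend and 0 with an F-test without moderation. It was 188 when the cosine was fitted over all 12 arrays with a light term, where 22 of the 23 were called. Leaving out 1 array gave 9 to 38. Day against night gave 0 calls, but 25 with the spike-in covariate and 0 to 9 with 1 array left out; without a model, 1482 probe sets did not overlap. Light by cosine gave 0 calls under every alternative except 0 to 1 with 1 time left out (1 without CT22). Of the alternatives for named genes, 1221 amplitudes kept their side of the threshold, 35 passed it anew and 50 lost it. For day minus night 1126 kept their side and 14 passed it anew. These counts concern the threshold only. Changes of sign in differences that were not called, and moves of a fitted peak, were not counted. With 1 array left out, the fitted peaks of some weak courses, those of exorh and cry5 among them, moved by hours. Light and dark pools share their 6 times. With the time point as a replicate block, an alternative chosen after seeing the data, light by cosine again gave 0 calls (774 at an unadjusted p under 0.05). Day and night, being different times, were not paired. The number of arrays limits what can be called, as do signals near background.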

Other observations

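Of 59 heat shock and folding genes, 10 passed the F-test without adjustment after the light pulse, where 10.1% of all genes did, and 0 were called. Their fitted peaks lay in all parts of the cycle, 3 between CT0 and CT6, 2 between CT6 and CT12, 1 between CT12 and CT18 and 4 between CT18 and CT24. Hsf2, a heat shock factor gene, read 761, 615 and 575 in the day and 661, 1383 and 1256 in the night (fitted peak CT20.3, adjusted p = 0.188 by limma), and hspa8b, of the Hsp70 family, read 159, 124.0 and 92.0 in the day and 130.0, 180 and 317 in the night (CT21.6, adjusted p = 0.243). Of 31 glycolysis genes, 7 passed without adjustment and 0 were called. Their fitted peaks were 2 between CT0 and CT6, 3 between CT12 and CT18 and 2 between CT18 and CT24. Ldha, the lactate dehydrogenase gene, read 438, 288, 197, 114, 331 and 377 over the 6 times (CT0.441, adjusted p = 0.188), and pgk1 and aldocb had fitted peaks at CT23.8 and CT0.0350, while gapdh and gapdhs had theirs at CT17.7 and CT16.8.

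The control probe set for the green fluorescent protein of the transgene, whose expression the aanat2 regulatory regions drive, read 83.7, 120.0, 164, 45.7, 114 and 80.1 at the 6 times after light. Its lowest value was in the CT14 pool. In these pools aanat2 read 636, 1445, 4682, 1375, 4099 and 848, lowest at CT2. In darkness the control was also lowest at CT14, at 23.8, while aanat2 had its highest dark value there, 2728. The signals of the control lie around the signal filter of 62.9.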
